A study of Mus musculus with 4 samples.

Results

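The genes described here are the cadherins and protocadherins named Cdh or Pcdh followed by a number, measured by single-cell RNA-seq in mouse cerebellar cells from embryos at stage E15.5. Of 32286 features in the count tables, 35 had such a name, and the 29 with at least 20 unique molecular identifiers (UMIs, each standing for 1 captured transcript) over the barcodes that passed a cell filter (500 or more genes detected, mitochondrial share up to 10%) are described, 18 cadherins and 11 protocadherins. Cdh1, Cdh16, Cdh17, Cdh19, Cdh26 and Pcdh12 fell under that minimum, with 0 to 13 UMIs. The mutant embryos, labelled En1/2 CKO, carried Ptf1aCre/+ and R26LSL-tdT/+ together with the homozygous floxed alleles En1lox/lox and En2lox/lox. The control embryos carried Ptf1aCre/+ and R26LSL-tdT/+ alone, so that the Cre allele and the tdTomato reporter were shared by both groups. Each genotype had 2 libraries of tdTomato-positive cells, each from pooled embryos whose number is not given in the labels. In both genotypes the reporter marks descendants of cells in which Ptf1a was active, and in the mutants En1 and En2 are lost only where the same Cre acted. The series asks what loss of the Engrailed transcription factors does to embryonic Purkinje cells and interneurons.

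Cadherins are calcium-dependent adhesion molecules that bind mainly to the same or a similar cadherin on a neighbouring cell. The classical type I and type II cadherins hold actin through catenins at their cytoplasmic tails. The delta-protocadherins, of the delta-1 and delta-2 groups, lack the catenin-binding tail and act partly by modulating classical cadherins and by recruiting actin regulators such as the WAVE complex. In the embryonic cerebellum, different cadherins and protocadherins are known from mouse and chick to mark groups of Purkinje cells.

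The libraries held 8190 and 11513 barcodes with 20724086 and 21021428 UMIs in En1/2 CKO replicates 1 and 2, and 10991 and 4619 barcodes with 15470932 and 5305154 UMIs in control replicates 1 and 2. The cells used were 4893 and 7300 from the mutants and 9487 and 1134 from the controls, 22814 in all, and 46 barcodes occurred in more than 1 library. Malat1, a nuclear RNA, stood at 31391 and 32348 CPM (UMIs per 1000000 UMIs of the cells summed) in the mutants, against 84964 CPM in control replicate 1 and 33327 CPM in control replicate 2, so that control replicate 1 stood apart. Control replicate 2 stood apart in another way: its median barcode held 13.4% mitochondrial UMIs, and only 25.5% of its barcodes passed the cell filter. Over all cells En2 had 30.4 and 15.3 CPM in the mutants against 103 and 49.2 CPM in controls (log2 fold change -1.80 ± 0.49, SE, adjusted p 0.955 by edgeR), while En1 stood at 69.7 and 63.0 CPM against 109.6 and 78.5 CPM. Transcripts of both targets thus remained in the mutants. The labels do not say which exons are floxed, and a tag at the transcript end may lie outside them, so that these levels do not measure the deletion.

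Promoter sequences help to place 3 members whose levels are described below. RefSeq promoters of GRCm38.p6, from 250 bases before to 50 bases after a start, were held for 21 of the 29 members, 24 promoters in all. Searched on both strands for 7 motifs, 1 of the 24 held TAATTA, a core sequence bound by homeodomain proteins, the class to which Engrailed belongs, against 5.29% of all 32851 promoters. CAGCTG, an E-box bound by basic helix-loop-helix proteins, the class of Ptf1a, was in 3 of the 24, against 16.3% of all promoters. CATCTG was in 2 against 17.2%, CACCTG in 5 against 20.2%, ATTTGCAT in 1 against 1.74%, and neither the EBF motif (0.904% of all promoters) nor TGANTCA (7.81%) was in any. The sequences of Cdh7, whose levels were lower in both mutant libraries of the interneuron-like and progenitor-like classes, and of Cdh9 and Cdh12, both on chromosome 15 and highest in Purkinje-like cells, are printed from 5′ to 3′ on the plus strand with the matched motif in capitals, TAATTA in Cdh7 and CAGCTG in the other two. A match is a description of these letters and no evidence of binding. The regions are chr1:109983473-109983772, chr15:16728665-16728964 and chr15:21111202-21111501.
Cdh7: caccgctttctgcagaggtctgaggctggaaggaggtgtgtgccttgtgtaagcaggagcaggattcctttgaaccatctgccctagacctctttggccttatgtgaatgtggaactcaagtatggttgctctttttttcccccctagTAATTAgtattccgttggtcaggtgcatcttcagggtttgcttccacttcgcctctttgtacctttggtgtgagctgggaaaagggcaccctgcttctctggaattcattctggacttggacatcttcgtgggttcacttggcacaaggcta
Cdh9: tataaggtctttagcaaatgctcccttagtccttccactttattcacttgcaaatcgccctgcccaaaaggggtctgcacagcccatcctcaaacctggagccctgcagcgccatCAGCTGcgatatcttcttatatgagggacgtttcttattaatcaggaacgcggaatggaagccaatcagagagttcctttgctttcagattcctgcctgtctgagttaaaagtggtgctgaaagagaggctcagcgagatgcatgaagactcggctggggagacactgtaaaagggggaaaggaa
Cdh12: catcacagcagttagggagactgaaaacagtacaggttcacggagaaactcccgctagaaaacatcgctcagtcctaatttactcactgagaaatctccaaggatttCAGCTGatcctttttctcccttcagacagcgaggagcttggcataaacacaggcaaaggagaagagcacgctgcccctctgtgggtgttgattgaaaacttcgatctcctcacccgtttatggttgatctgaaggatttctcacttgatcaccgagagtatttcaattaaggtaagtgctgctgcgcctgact
The matches began 102, 135 and 143 bases before the RefSeq start in Cdh7, Cdh9 and Cdh12. The annotated genes begin upstream of the printed regions for Cdh7 (chr1:109982431) and Cdh12 (chr15:20449265), so that these 2 regions lie inside the gene, at a later start. For Cdh9 the gene begins within the printed region, at chr15:16728756.

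Cells fell into 21 clusters, clustered without the member genes and named from marker lists, and 11 classes had at least 20 cells in every library. Levels between such classes are described without a test. Purkinje cells, the output neurons of the cerebellar cortex, had the broadest set: 17 of the 29 members averaged at least 20 CPM over the 4 libraries in Purkinje-like cells, against 12 in astroglia-like cells, 12 in granule lineage-like cells, 11 in oligodendrocyte lineage-like cells, 10 in radial progenitor-like cells, 7 in GABAergic interneuron-like cells, 5 in Ptf1a intermediate progenitor-like cells and 1 in microglia or macrophage-like cells. The unnamed cluster had 6 such members, and cycling-like and erythroid-like cells had 5 each. The 29 members summed to 1709 ± 226 CPM in Purkinje-like cells and to 608 ± 115 CPM in interneuron-like cells (SD, n = 4 libraries). The class with the highest mean was Purkinje-like for 14 members, astroglia-like for 5, oligodendrocyte lineage-like for 4 and granule lineage-like for 3. It was the same class in both genotypes for 21 members, the same in each of the 4 libraries for 10, and above the next class in every library for 9. A stricter cell filter (1000 genes, 5% mitochondrial) left 7 classes with enough cells, among them the highest class of 6 members, and 4 of those 6 kept it. Cells with at least 2000 UMIs left 8 classes, among them the highest class of 14 members, and 12 of those kept it. In microglia-like cells, which serve as a guide to free RNA, the members summed to 103 ± 73.7 CPM. In erythroid-like cells they summed to 447 ± 119 CPM, more than the 384 ± 90 CPM of Ptf1a intermediate progenitor-like cells. The microglia-like sum therefore need not be the level of free RNA in every class, and the source of the erythroid-like sum was not tested.

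**Figure D1:**
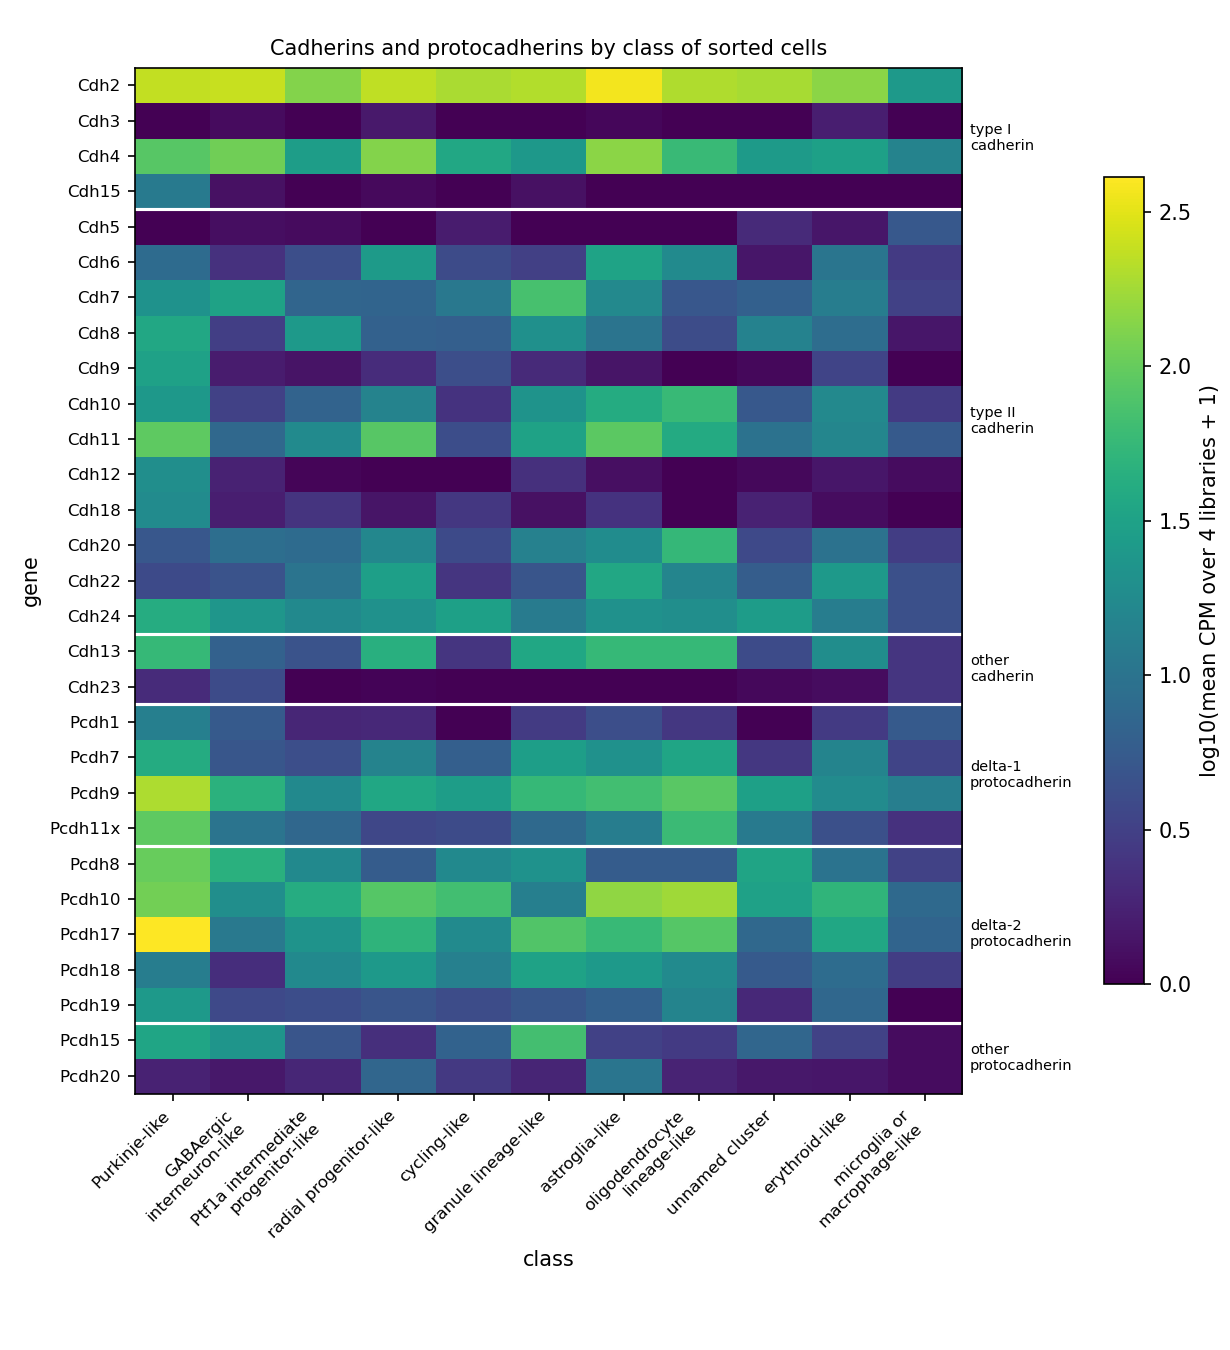
Mean CPM over 4 libraries on a log10(CPM + 1) colour scale, with genes in rows grouped by family and classes of sorted cells in columns. Pcdh17 in Purkinje-like cells (409 CPM) and Cdh2 in astroglia-like cells (372 CPM) are the brightest fields, and Cdh12 and Cdh18 are brightest in the Purkinje-like column.

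Among type I cadherins, Cdh2 (N-cadherin, the main cadherin of neural adherens junctions) was found in every class and was highest in astroglia-like cells, with 366 and 323 CPM in the mutants and 388 and 411 CPM in the controls. The next class, interneuron-like, had 225 and 218 CPM in the mutants and 286 and 257 CPM in the controls, all 4 values below the astroglia-like range, and microglia-like cells averaged 24.2 CPM. Interneuron-like cluster 3 alone reached that range in the mutants, with 354 and 327 CPM, and had 294 and 267 CPM in the controls. Cdh4 (R-cadherin) had means of 142 CPM in astroglia-like and 133 CPM in radial progenitor-like cells, which did not differ beyond the spread between libraries. Cdh15 (M-cadherin, known from muscle) had only 22 UMIs in all, and was highest in Purkinje-like cells in each library, with 2.38 and 5.04 CPM in the mutants and 2.21 and 34.6 CPM in the controls, the last from 23 cells.

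The type II cadherins divided the classes more sharply. Cdh12 had 15.49 and 22.7 CPM in mutant and 19.1 and 17.3 CPM in control Purkinje-like cells, against a mean of 1.28 CPM in the next class, granule lineage-like. Cdh18 had 8.34 and 21.4 CPM in mutant and 21.3 and 17.3 CPM in control Purkinje-like cells, against a mean of 1.64 CPM in the next class. These members were thus low outside Purkinje-like cells in each library. In control replicate 2 the Purkinje-like class had 23 cells, so that 1 UMI was worth 17.3 CPM there and 3 UMIs, the limit that a count of 0 allows, 52.0 CPM. Cdh7 was highest in granule lineage-like cells, with 54.9 and 58.7 CPM in the mutants and 119 and 49.1 CPM in the controls, above every library's value in the next class, interneuron-like. Interneuron-like cluster 4, described below, overlapped the granule lineage-like values, with 73.7 and 47.0 CPM in the mutants and 77.5 and 68.3 CPM in the controls. Cdh20 was highest in oligodendrocyte lineage-like cells, with 64.1 and 42.7 CPM in the mutants and 66.96 and 42.1 CPM in the controls, against a mean of 17.8 CPM in astroglia-like cells. Cdh10 averaged 56.7 CPM in oligodendrocyte lineage-like and 39.9 CPM in astroglia-like cells, with overlapping libraries. Cdh6 and Cdh22 were highest in astroglia-like cells (32.0 and 35.7 CPM) with radial progenitor-like cells next (25.3 and 28.6 CPM), and both pairs overlapped between libraries. Cdh11 averaged 91.7 CPM in Purkinje-like and 89.5 CPM in astroglia-like cells. Cdh8 averaged 35.7 CPM in Purkinje-like and 24.4 CPM in intermediate progenitor-like cells, also with overlapping libraries, and Cdh24 was found broadly, with 40.6 CPM in Purkinje-like cells.

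Of the remaining cadherins, Cdh13 (T-cadherin, anchored in the membrane by lipid and without a cytoplasmic tail) averaged 54.9 CPM in both oligodendrocyte lineage-like and Purkinje-like cells. Cdh23 and Pcdh15, which together form the tip links of inner ear hair cells, did not share their highest class. Cdh23 was sparse, with 72 UMIs in all and a highest mean of 2.99 CPM in interneuron-like cells. Pcdh15 was highest in granule lineage-like cells, with 52.6 and 57.5 CPM in the mutants and 90.2 and 68.2 CPM in the controls, above every library of the next class, Purkinje-like. The highest Purkinje-like value, 52.0 CPM in control replicate 2, was 3 UMIs in 23 cells, too few to settle that gap.

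The delta-protocadherins were mostly highest in Purkinje-like cells. Pcdh17, a delta-2 protocadherin known to recruit the WAVE complex, had 204 and 319.9 CPM in mutant and 228 and 884 CPM in control Purkinje-like cells. The next class, oligodendrocyte lineage-like, averaged 82.2 CPM, and no library of it reached the lowest Purkinje-like value. Pcdh11x, a delta-1 member on the X chromosome, had 71.5 and 74.3 CPM in mutant and 83.9 and 139 CPM in control Purkinje-like cells, against a mean of 59.0 CPM in oligodendrocyte lineage-like cells, where control replicate 1 overlapped that range. Pcdh8, known in rat hippocampal neurons to promote removal of N-cadherin from the surface, had 65.5 and 81.9 CPM in mutant and 111 and 139 CPM in control Purkinje-like cells, against a mean of 44.5 CPM in interneuron-like cells, and Purkinje-like cells ranked first in each library. Pcdh9 averaged 195 CPM in Purkinje-like cells and 86.0 CPM in the oligodendrocyte lineage-like class. Pcdh10, another protocadherin that binds the WAVE complex, differed from these in being highest in oligodendrocyte lineage-like cells (174 CPM) and astroglia-like cells (151 CPM), whose libraries overlapped. Pcdh7, Pcdh19 and Pcdh1 averaged 39.1, 24.3 and 12.3 CPM in Purkinje-like cells, their highest class, with libraries that overlapped the next class. Pcdh18 was highest in granule lineage-like cells (30.7 CPM) and Pcdh20 in astroglia-like cells (9.25 CPM).

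Within Purkinje-like cells, clusters 5 and 10 held different members. Cluster 5 was led by Nrgn and Nrp2, and cluster 10 by Snhg11, Fgf3 and the neurofilament genes Nefl and Nefm. They had 296 and 232 mutant cells with 544 and 5 control cells, and 139 and 210 mutant cells with 399 and 18 control cells. Cdh8 was nearly confined to cluster 10, with 151 and 71.6 CPM in the mutants and 84.9 CPM in control replicate 1, against 1.68 and 3.0 CPM in the mutants and 2.56 CPM in control replicate 1 in cluster 5. Cdh11 had 261 and 130.3 CPM in the mutants and 189 CPM in control replicate 1 in cluster 10, and 8.42, 9.0 and 6.39 CPM in the same libraries in cluster 5. Pcdh17 had 432 and 447 CPM in the mutants and 397 CPM in control replicate 1 in cluster 10, and 109, 144 and 104 CPM in cluster 5. Cdh13, Pcdh11x, Pcdh7, Pcdh19 and Cdh12 were also higher in cluster 10 in each of these 3 libraries. Cdh4 ran the other way, with 125 and 117 CPM in the mutants and 148 CPM in control replicate 1 in cluster 5, and 93.8, 82.5 and 58.9 CPM in cluster 10. The clusters were drawn from these cells, so that these differences are a description, with no test.

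**Figure D2:**
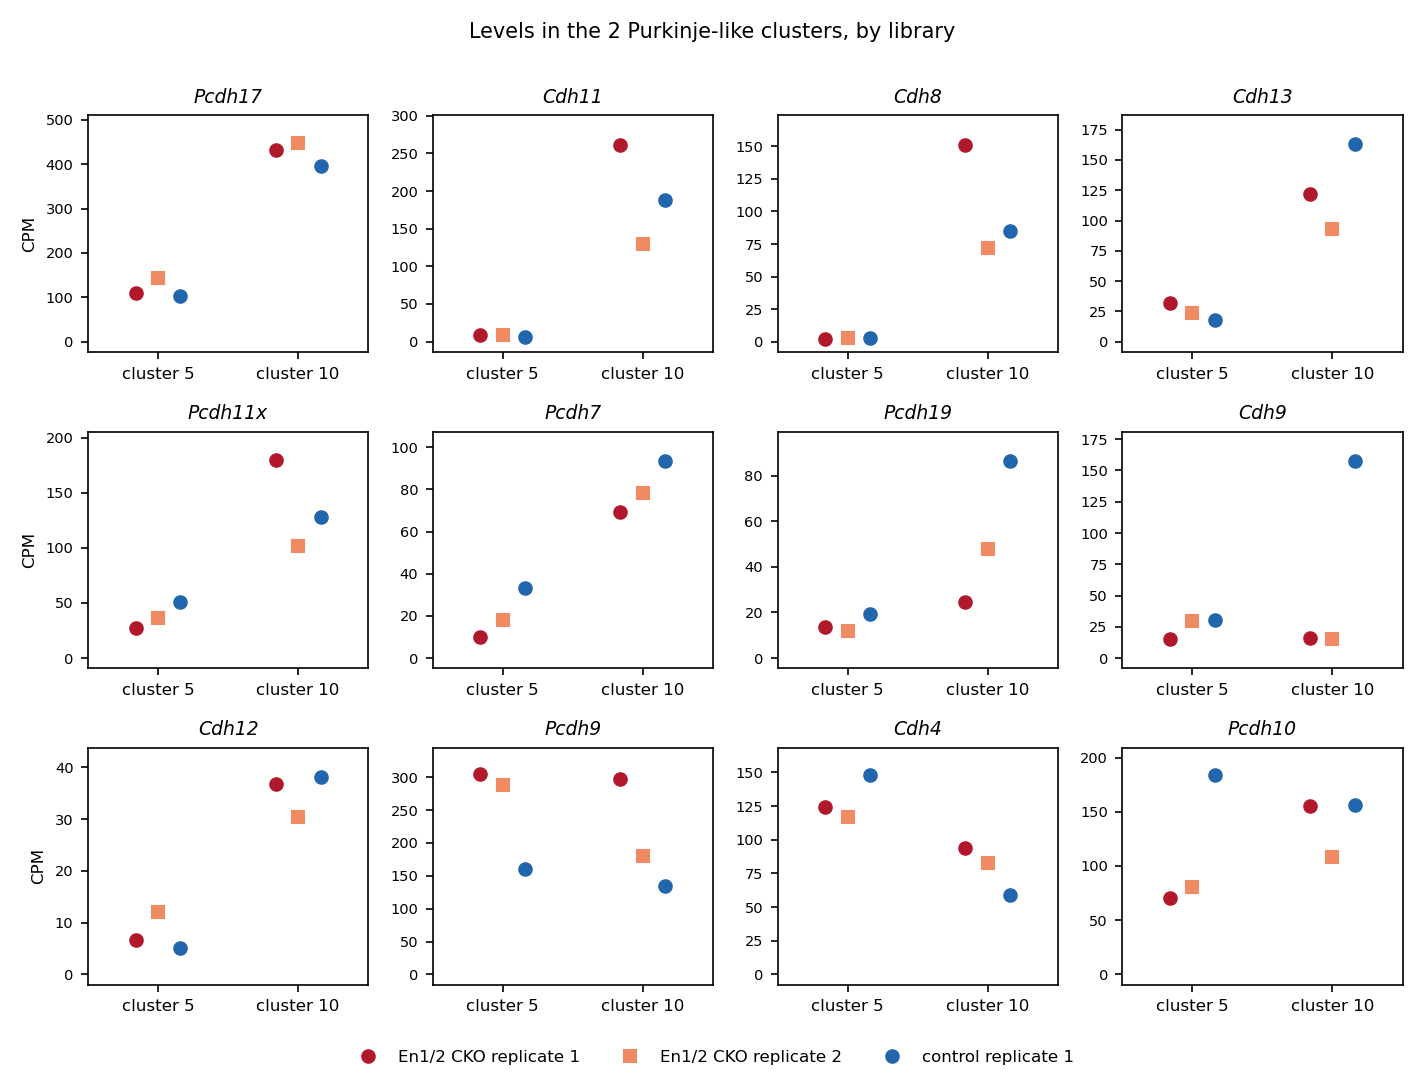
CPM of 12 members in Purkinje-like clusters 5 and 10, with 1 point per library. Control replicate 2, which had 5 and 18 cells in these clusters, is not plotted. Cdh8, Cdh11 and Pcdh17 are higher in cluster 10 in each library shown, Cdh4 is higher in cluster 5, and Cdh9 is high only in cluster 10 of control replicate 1.

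Interneuron-like cells held 3 clusters that also differed. Cluster 1 was led by Neurod1, Bhlhe22 and Pax2, cluster 3 by Robo3, Slc6a5 and Pnoc, and cluster 4 by Igfbp5, Grin2b and Slc32a1, the vesicular GABA transporter. Cdh7 had 73.7 and 47.0 CPM in mutant and 77.5 and 68.3 CPM in control cells of cluster 4, against 10.96 to 29.6 CPM over all libraries of clusters 1 and 3. Cdh4 had 152 and 209 CPM in mutant and 186 and 119.6 CPM in control cells of cluster 4, against a range of 57.1 to 118.6 CPM in clusters 1 and 3. In astroglia-like cells, cluster 6, led by Gdf10 and Sparcl1, had Cdh4 at 288 and 285 CPM in the mutants and 266 and 177 CPM in the controls, against 17.9 to 56.6 CPM in cluster 7, led by Slc14a2 and Aldoc. Pcdh10 was higher in cluster 7, with 191 and 214 CPM in mutants and 200.3 and 196.5 CPM in controls, against 19.6 to 124 CPM in cluster 6. The clusters of a class thus carried different combinations of the same members.

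Rare classes, which had under 20 cells in at least 1 library, are given pooled over libraries with exact Poisson 95% intervals that cover counting error only. Cdh5 (VE-cadherin, the cadherin of endothelial junctions) had 23 UMIs in 18 endothelium-like cells, 285 CPM (180.4 to 427), 8 UMIs in 42 meningeal fibroblast-like cells, 69.9 CPM (30.2 to 138), and 0 UMIs in 39 mural-like cells, which allows up to 51.0 CPM. Pcdh1 had 186 CPM (104 to 306) in endothelium-like and 166 CPM (85.6 to 289.5) in mural-like cells. Pcdh18 had 235 CPM (137 to 376) in mural-like cells and 12.4 CPM (0.313 to 69.0), from 1 UMI, in endothelium-like cells. Cdh11 had 148.5 CPM (86.5 to 238) in the meningeal fibroblast-like cells. Cdh3 (P-cadherin, known from epithelia) had 49 of its 58 UMIs in 91 choroid plexus-like cells, 50.4 CPM (37.3 to 66.6). All of those cells came from the mutants, 68 from replicate 1 and 23 from replicate 2, and 0 from either control. The highest mean among the larger classes for Cdh3 was 0.675 CPM.

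**Figure D3:**
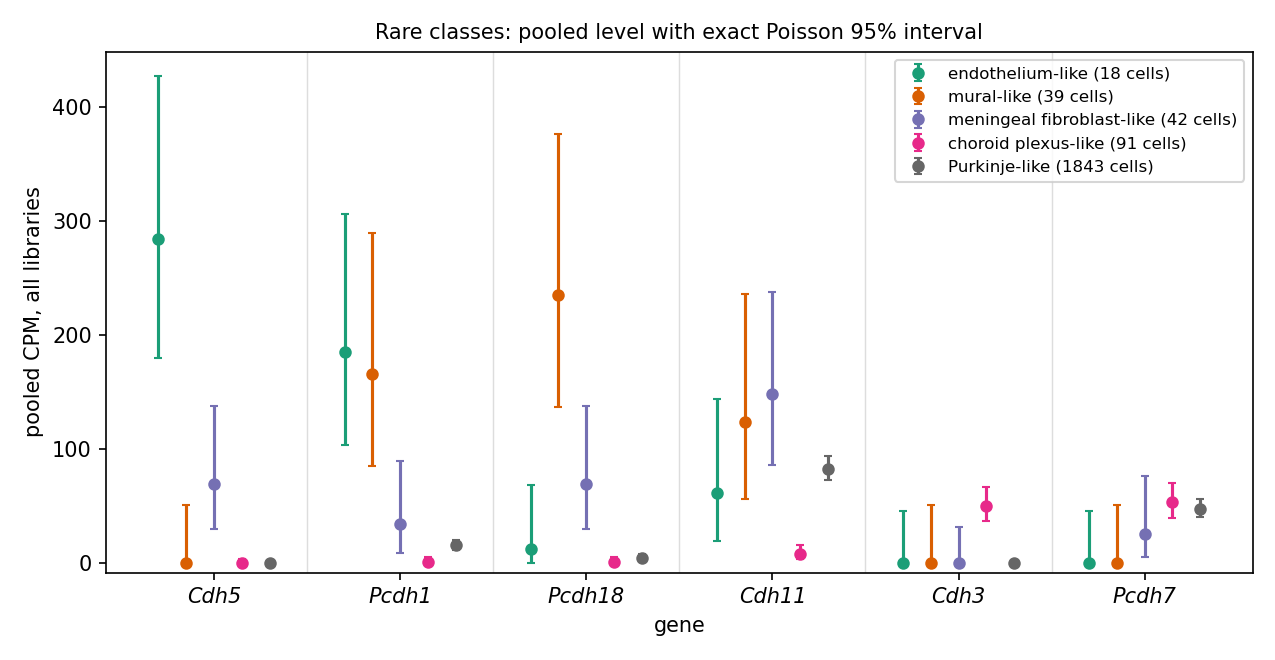
Pooled CPM over all libraries of 6 members in 4 rare classes and in Purkinje-like cells, with exact Poisson 95% intervals for counting error. Cdh5 stands at 285 CPM in endothelium-like cells, Pcdh18 at 235 CPM in mural-like cells and Cdh3 at 50.4 CPM in choroid plexus-like cells.

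The genotypes were compared on UMI sums per library and class by edgeR's quasi-likelihood test. It called 0 members at an adjusted p (Benjamini-Hochberg over all genes tested) under 0.05 in Purkinje-like cells, where 0.0225% of 8884 genes were called, and 0 in the interneuron-like class, the progenitor-like class, all cells and 6 further classes, where 0.0% of genes were called in each. In the first 4 comparisons 20, 16, 20 and 28 members were tested. At an unadjusted p under 0.05 there were 3, 4, 4 and 4 of them, against 3.25%, 3.86%, 6.38% and 4.61% of all genes, and DESeq2 called 0 members in each. In the further classes such members numbered 0 in astroglia-like (4.7% of genes), 1 in granule lineage-like (4.3%), 0 in oligodendrocyte lineage-like (3.82%), 2 in cycling-like (6.3%), 0 in microglia-like (1.94%) and 0 in erythroid-like cells (1.51%). In data simulated from the Purkinje-like, interneuron-like, progenitor-like and all-cell sums the test recovered 74%, 91%, 87% and 64% of 4-fold and 16%, 20%, 21% and 7% of 2-fold changes. Whether these shares hold for the measured sums was not tested. In the measured interneuron-like sums En2 had 34.4 and 23.1 CPM in the mutants and 127 and 112 CPM in the controls. Its log2 fold change was -2.09 ± 0.27, and edgeR did not call it (adjusted p 0.9997). In Purkinje-like cells En2 overlapped, with 87.0 and 42.8 CPM in the mutants and 119 and 69.3 CPM in the controls (-0.76 ± 0.38). En1 had 239.5 and 245.6 CPM in mutant and 254.5 and 17.3 CPM in control Purkinje-like cells, the last from 23 cells (0.39 ± 0.51). In bulk sums of a class, fewer expressing cells and less RNA per cell cannot be told apart. Genes on chromosomes 1 and 5, where the floxed En1 and En2 alleles lie, share linked DNA with the mutation, and for Cdh7 and Cdh20 on chromosome 1 and Pcdh7 on chromosome 5 linkage and mutation cannot be told apart.

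In Purkinje-like cells, 21 members had at least 20 UMIs. Both mutant libraries lay below both controls for 4 of them and above for 3, against 12.5% and 17.4% of all genes measured there. Thinned to the depth of the smallest library, 6 members were measured, 1 of them below and 1 above, against 9.74% and 15.3% of genes. Pcdh9 was the clearest of the higher ones, with 303 and 225 CPM in the mutants (264 ± 54.6, SD, n = 2) against 149 and 104 CPM in the controls (127 ± 32.1). Its log2 fold change was 0.96 ± 0.37 (SE), with an unadjusted p of 0.0235 and an adjusted p of 1.00 by edgeR. Its UMIs came from 158 and 122 mutant cells and 171 and 5 control cells, and no cell held more than 14. Cdh8 had 45.3 and 42.8 CPM in the mutants and 37.5 and 17.3 CPM in the controls, and Pcdh1 had 15.49 and 18.9 CPM in the mutants and 14.7 CPM and 0 in the controls. In control replicate 2 the 0 for Pcdh1 allows up to 52.0 CPM, above both its mutant values, and the 17.3 CPM of Cdh8 is 1 UMI in 23 cells. The place of Pcdh1 and Cdh8 among the 3 is therefore not settled at this depth. Pcdh8 was lower, with 65.5 and 81.9 CPM in the mutants and 111 and 139 CPM in the controls, a log2 fold change of -0.64 ± 0.31. Pcdh11x (71.5 and 74.3 CPM in the mutants, 83.9 and 139 CPM in the controls), Cdh24 (35.7 and 32.8 CPM in the mutants, 41.9 and 52.0 CPM in the controls) and Cdh11 (82.2 and 79.3 CPM in the mutants, 83.9 and 121 CPM in the controls) were the other 3 whose mutant libraries lay below both controls. Cdh8 and Cdh11 lie almost wholly in cluster 10, which held 139 of 435 and 210 of 442 mutant cells of the class, against 399 of 943 and 18 of 23 control cells. Within cluster 10 their mutant libraries lay on both sides of control replicate 1 (values above), and the part of this makeup in the class values was not tested. Pcdh11x and Pcdh17 were also higher in cluster 10 in each library compared above. The part of the makeup in their class values, those of control replicate 2 among them, was not tested either. Marker genes moved beside these: all 12 Purkinje markers were detected and summed to 3343 and 3624 CPM in the mutants against 4455 and 8334 CPM in the controls, and the 7 erythroid markers, of which 6 were detected, to 3013 and 932 CPM against 1235 and 34.6 CPM. Their part in the result was not tested.

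Cdh9, a type II cadherin known to act at hippocampal mossy fibre synapses, had the smallest p among members in Purkinje-like cells and was chosen after its values were seen. It had 15.49 and 21.4 CPM in the mutants, against 84.6 CPM in control replicate 1 and 0 in control replicate 2, where 3 UMIs would be 52.0 CPM. The fitted log2 fold change was -2.0 ± 0.49, with an unadjusted p of 0.00133 and an adjusted p of 0.802. The mutants had 13 and 17 UMIs in 5 and 10 cells, and control replicate 1 had 115 UMIs in 54 cells. The gap lay in cluster 10, with 16.3 and 15.2 CPM (4 and 7 UMIs) in the mutants against 158 CPM (91 UMIs) in control replicate 1, while cluster 5 had 15.2 and 30 CPM in the mutants and 30.7 CPM in control replicate 1. Cdh10, also added after its values were seen, had 10.7 and 23.9 CPM in the mutants against 60.3 CPM and 0 in the controls (log2 fold change -1.65 ± 0.52, adjusted p 1.00), and both mutants were below control replicate 1 in cluster 5 (3.37 and 18.0 CPM in the mutants, 62.7 CPM in control replicate 1) as well as in cluster 10 (28.5 and 28.2 CPM in the mutants, 57.1 CPM in control replicate 1). Without control replicate 2 both passed, at -2.21 (adjusted p 1.32e-08) and -1.82 (adjusted p 4.34e-05), and so did Pcdh9 at 0.81 and Pcdh10, 4 members of 20 tested where 2.31% of all genes passed. Without control replicate 1 the fit turned to 6.4 for Cdh9 and 6.30 for Cdh10, against a control of 0 UMIs, and neither passed. Both differences therefore rested on control replicate 1. Pcdh17 alone of 20 members passed without control replicate 1 (2.62% of genes), where control replicate 2 stood at 884 CPM from 51 UMIs in 15 cells.

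**Figure D4:**
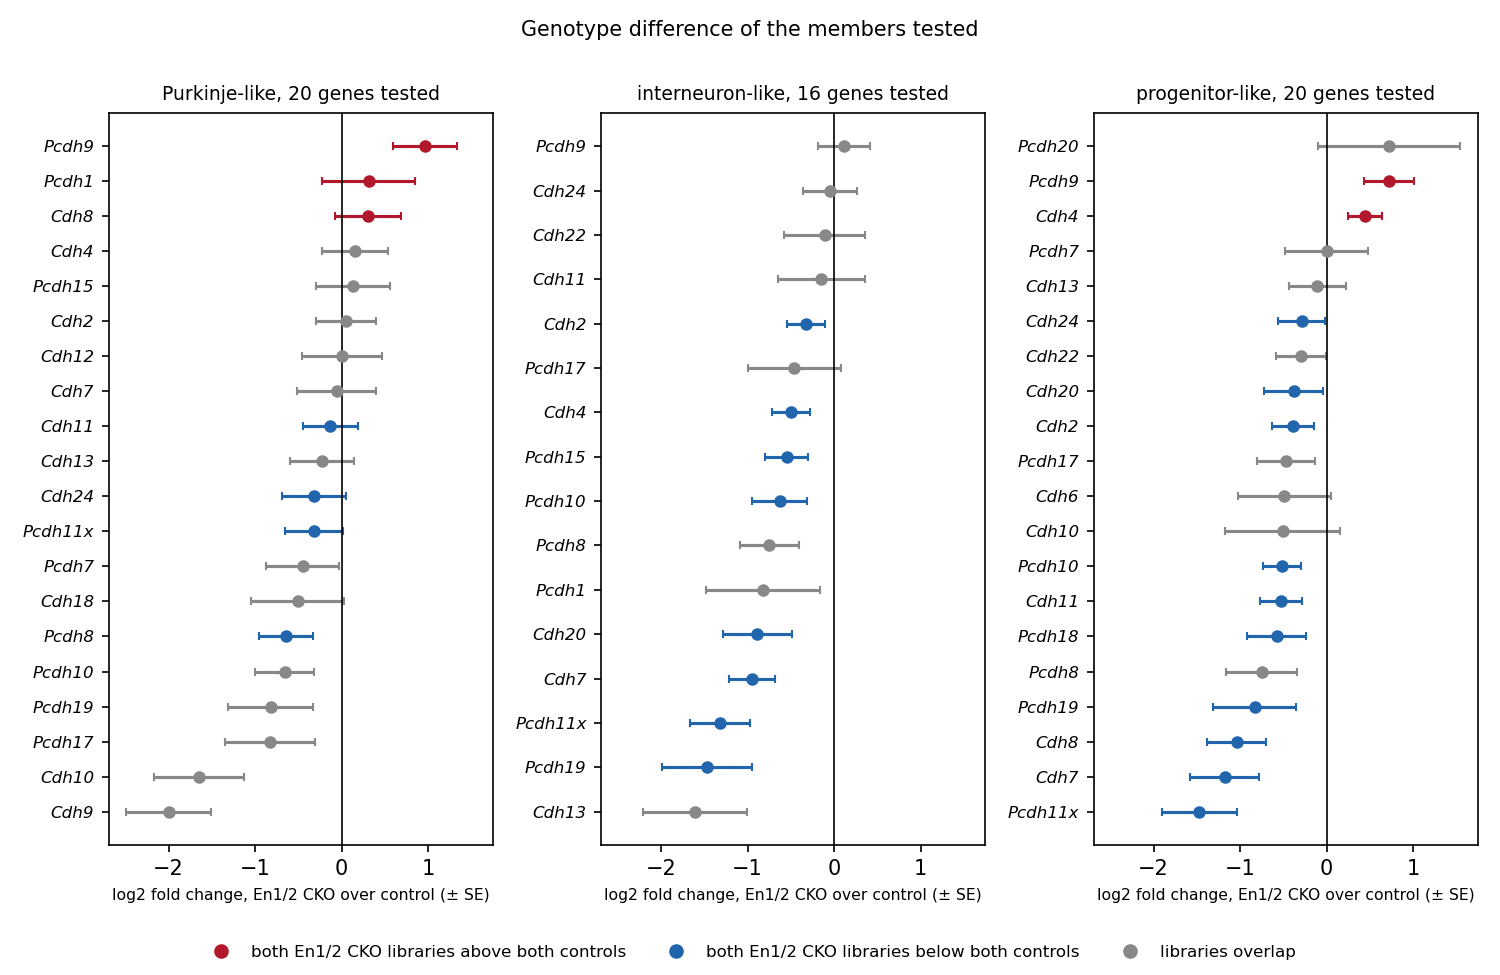
Log2 fold change of En1/2 CKO over control with its SE from edgeR for each member tested in 3 classes (Purkinje-like, interneuron-like, progenitor-like), sorted by value and coloured by whether the 2 mutant libraries lay beyond both controls. Most members lie left of 0 in each panel, with 15 of 16 in the interneuron-like and 16 of 20 in the progenitor-like panel. Medians of the members and of all genes are given in the text. Pcdh9 is the highest or next to highest in each panel, and no member passed the adjusted threshold.

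In interneuron-like cells, both mutant libraries lay below both controls for 9 of 20 measured members and above for 0, against 13.5% and 18.2% of all genes measured there. Thinned to the depth of the smallest library, 9 members were measured, 4 of them below and 1 above, against 10.96% and 16.2% of genes. The members' median log2 fold change, from a fit with no low-count filter, was -0.63, against -0.03 over all genes. In Purkinje-like, progenitor-like and all cells that median was -0.32, -0.41 and -0.22, against 0.01, 0.01 and -0.03 over all genes. Cdh7 had 24.8 and 19.2 CPM in the mutants and 46.7 and 33.2 CPM in the controls (log2 fold change -0.95 ± 0.27, unadjusted p 0.0123, adjusted p 1.00). Cdh4 had 85.4 and 99.5 CPM in the mutants and 141 and 112 CPM in the controls (-0.50 ± 0.22). Pcdh15 (19.1 and 18.1 CPM in the mutants, 28.5 and 22.8 CPM in the controls), Pcdh10 (12.6 and 14.99 CPM in the mutants, 19.1 and 27.0 CPM in the controls) and Cdh2 (225 and 218 CPM in the mutants, 286 and 257 CPM in the controls) were likewise lower without overlap. The X-linked members Pcdh11x (5.44 and 5.76 CPM in the mutants, 15.01 and 10.4 CPM in the controls) and Pcdh19 (1.70 and 1.15 CPM in the mutants, 4.07 and 4.15 CPM in the controls), named after their values were seen for an unadjusted p under 0.05, were lower too. Xist, which reports the share of female cells in a pool, stood at 643 and 1595 CPM in the mutants and 1027 and 2350 CPM in the controls of this class.

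The clusters that make up the interneuron-like class differed between libraries, and this stands beside those values. Cluster 1 held 461 and 362 of 1100 and 1334 mutant cells but 80 and 152 of 3530 and 215 control cells, and cluster 4 held 342 and 470 mutant cells and 1863 and 34 control cells. Within cluster 1 alone, also chosen after the values were seen, Cdh7 had 15.9 and 12.3 CPM in the mutants and 25.9 and 29.6 CPM in the controls, Cdh4 had 75.9 and 68.1 CPM in the mutants and 103 and 119 CPM in the controls, and Pcdh10 had 7.96 and 11.7 CPM in the mutants and 20.7 and 29.6 CPM in the controls. These 3 were thus lower without overlap in cluster 1. Control replicate 1 had 80 cells with 193333 UMIs there, so that 3 UMIs were worth 15.52 CPM. Its Cdh7 and Pcdh10 values, 25.9 and 20.7 CPM, therefore rest on few UMIs. In cluster 4, Cdh7 overlapped, with 73.7 and 47.0 CPM in the mutants and 77.5 and 68.3 CPM in the controls, and so did Cdh4. In cluster 3, Cdh7 (18.9 and 11.3 CPM in the mutants, 10.96 and 19.04 CPM in the controls), Cdh4 and Pcdh10 overlapped as well. Cdh2 was lower without overlap in cluster 1 (195 and 167 CPM in the mutants, 253 and 248 CPM in the controls) and cluster 4 (262 and 257 CPM in the mutants, 283 and 307.5 CPM in the controls). In cluster 3 it was higher without overlap, at 354 and 327 CPM in the mutants and 294 and 267 CPM in the controls. All 9 interneuron markers were detected and summed to 2436 and 2334 CPM in the mutants and 2099 and 2433 CPM in the controls, while the 7 erythroid markers summed to 1296 and 1459 CPM in the mutants and 2413 and 37.3 CPM in the controls. The 12 Purkinje markers summed to 1772 and 1647 CPM in the mutants and 1914 and 2379 CPM in the controls. Choroid plexus markers (5 of 6 detected) summed to 85.7 and 65.3 CPM in the mutants and 46.1 and 33.2 CPM in the controls, and the 7 glutamatergic markers to 158 and 179 CPM in the mutants and 88.4 and 133 CPM in the controls. The part of these lists, of the makeup and of the depth per cell in the class values was not tested. Without control replicate 2, 6 of 17 members passed the threshold (Cdh4, Cdh7, Cdh13, Pcdh8, Pcdh11x and Pcdh15), where 17.8% of all genes did. With control replicate 1 left out 0 of 16 members and 7.58% of genes passed, and Cdh13 turned to 0.63 on the log2 scale.

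Progenitor-like cells, radial (cluster 9) and Ptf1a intermediate (clusters 12 and 15) together, had both mutant libraries below both controls for 10 of 21 measured members and above for 2, against 16.1% and 20.9% of all genes measured there. Pcdh9 and Cdh4 were the 2 higher members. Pcdh9 had 35.5 and 31.9 CPM in the mutants and 17.4 and 24.4 CPM in the controls (log2 fold change 0.72 ± 0.29, adjusted p 0.756). Cdh4 had 94.7 and 98.7 CPM in the mutants and 72.2 and 67.8 CPM in the controls (0.44 ± 0.20). Pcdh10 had 55.2 and 52.0 CPM in the mutants and 69.4 and 82.7 CPM in the controls, and Cdh11 had 42.1 and 43.7 CPM in the mutants and 54.1 and 69.2 CPM in the controls. Cdh2 (168 and 161 CPM in the mutants, 179.7 and 243 CPM in the controls), Pcdh18 (16.4 ± 1.32 CPM in the mutants, 25.6 ± 9.77 CPM in the controls, SD, n = 2 each) and Cdh24 (17.7 and 16.6 CPM in the mutants, 20.1 and 21.7 CPM in the controls) were lower without overlap. Cdh8, Cdh7 and Pcdh11x, added after their values were seen for an unadjusted p under 0.05, had log2 fold changes of -1.04 ± 0.34, -1.18 ± 0.40 and -1.47 ± 0.43, the last from 2.84 and 2.40 CPM in the mutants and 7.63 and 6.78 CPM in the controls. In this class too the clusters were uneven: radial cells were 646 and 484 of 1435 and 1195 mutant cells and 113 and 163 of 832 and 283 control cells. Depth per cell also differed, with a median of 4199 and 3884 UMIs in the mutants and 1107 and 2485 UMIs in the controls of this class. In radial cells alone, Cdh11 had 65.3 and 68.0 CPM in the mutants and 109 and 98.4 CPM in the controls, while in cluster 12 it overlapped, with 19.3 and 24.9 CPM in the mutants and 31.5 and 15.4 CPM in the controls. Pcdh10 was lower without overlap in cluster 12 (37.9 and 36.9 CPM in the mutants, 74.4 and 56.4 CPM in the controls) and in radial cells (76.5 and 74.8 CPM in the mutants, 80.2 and 102.6 CPM in the controls). All 12 Purkinje markers were detected in this class and summed to 1089 and 1122 CPM in the mutants and 1732 and 1492 CPM in the controls. The astroglia markers (10 of 11 detected) summed to 1418 and 1417 CPM in the mutants and 1646 and 1746 CPM in the controls, and the 8 granule lineage markers were lower too. The part of these lists, of the uneven clusters and of the depth per cell was not tested. Without control replicate 1, 7 of 21 members passed (Cdh2, Cdh6, Cdh10, Cdh11, Pcdh10, Pcdh17 and Pcdh18), against 14.4% of all genes. Without control replicate 2, 3 of 21 passed (Cdh8, Pcdh8 and Pcdh9), against 14.8% of genes, so that the lists held no member in common.

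Pcdh9 stood higher in the mutants in several clusters, a comparison chosen after its values were seen. Of 14 clusters that held 20 or more cells in each library, 13 had 20 or more Pcdh9 UMIs, and both mutants lay above both controls in 7 and below in 1. In 2 of the 7, clusters 15 and 13, control replicate 2 held 0 Pcdh9 UMIs in 26 and 34 cells. This allows up to 46.4 and 77.1 CPM, above the mutant values, so that 5 do not rest on a count of 0. Of these 5, clusters 3, 6 and 12 had 1 Pcdh9 UMI each in control replicate 2, and cluster 4 had 3. There 3 UMIs were worth 57.1, 58.9, 15.4 and 51.2 CPM in the same order, so that these 4 rest on few UMIs of that library. Between 15.7% and 22.4% of genes measured in a cluster lay above in the same way. In interneuron-like cluster 4 it had 154 and 95.8 CPM in the mutants and 66.6 and 51.2 CPM in the controls (log2 fold change 0.90 ± 0.31, adjusted p 0.766). In cluster 3 it had 64.9 and 43.5 CPM in the mutants and 33.4 and 19.04 CPM in the controls, and in astroglia-like cluster 6 it had 64.5 and 67.8 CPM in the mutants and 34.4 and 19.6 CPM in the controls (1.02 ± 0.34, adjusted p 0.568). In cluster 1 it overlapped, with 37.9 and 20.1 CPM in the mutants and 51.7 and 32.3 CPM in the controls. The fitted log2 fold change was negative in 6 of these clusters, and cluster 13 had no Pcdh9 fit because of the low-count filter. In granule lineage-like cells both mutants lay below both controls, with 52.6 and 42.8 CPM in the mutants and 65.5 and 62.7 CPM in the controls. In all cells together the difference was small, 61.3 and 53.7 CPM in the mutants and 52.8 and 45.7 CPM in the controls, and its sign turned under other cell filters.

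**Figure D5:**
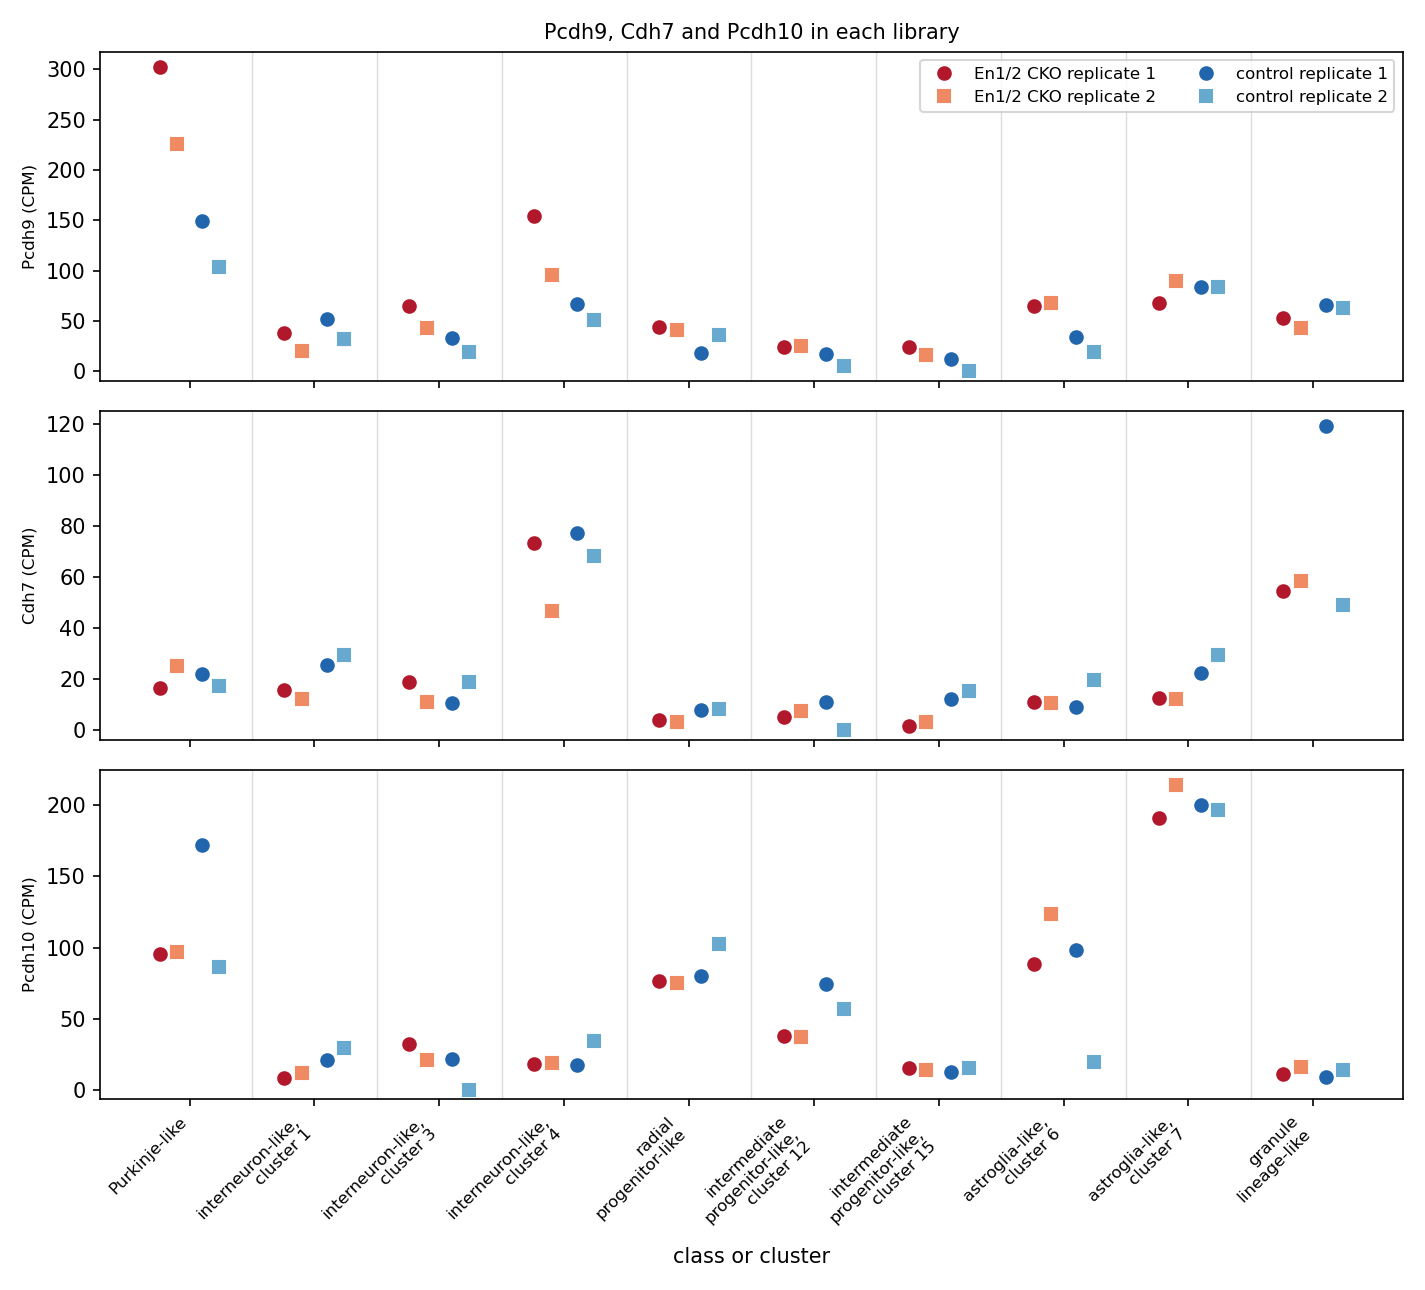
CPM of Pcdh9, Cdh7 and Pcdh10 in each library for Purkinje-like and granule lineage-like cells and for single clusters of the other classes, with the 2 En1/2 CKO libraries left of the 2 controls. Pcdh9 is higher in both mutants in Purkinje-like cells and in clusters 3, 4, 6, 9, 12 and 15. Control replicate 2 held 0 Pcdh9 UMIs in cluster 15, 1 each in clusters 3, 6 and 12, and 3 in cluster 4. Cdh7 and Pcdh10 are lower in both mutants in cluster 1, where 3 UMIs of control replicate 1 were worth 15.52 CPM.

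Whether the genotype effect in Purkinje-like cells differed from that in interneuron-like cells was tested as an interaction, which called 0.299% of 10025 genes and no member, while 5 of 22 members had an unadjusted p under 0.05, against 5.98% of genes. Pcdh9 came nearest, its effect being greater in Purkinje-like cells by 0.91 ± 0.26 on the log2 scale, with an unadjusted p of 0.000544 and an adjusted p of 0.111. Next were Cdh13 (1.52 ± 0.48, adjusted p 0.209), Pcdh11x (1.12 ± 0.42), Cdh4 (0.69 ± 0.27) and Cdh7 (1.01 ± 0.47), all with a positive sign. The interaction called Pcdh9 when doublets were kept. Fitted alone, interneuron-like clusters 1, 3 and 4 had Pcdh9 log2 fold changes of -0.41 ± 0.47, 0.67 ± 0.37 and 0.90 ± 0.31. The whole interneuron-like class had 0.11 ± 0.30 and Purkinje-like cells 0.96 ± 0.37. Cdh7 and Cdh4 were lower without overlap in cluster 1 and overlapped in clusters 3 and 4. The part of the uneven clusters in these interactions was not tested.

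In the other classes, both mutants lay below both controls for 6 of 16 measured members in granule lineage-like cells (15.2% of all genes there), 4 of 20 in astroglia-like cells (14.3%), 2 of 16 in oligodendrocyte lineage-like cells (13.3%) and 3 of 8 in cycling-like cells (14.9%). They lay above for 1, 2, 0 and 0 members (17.6%, 17.0%, 19.7% and 20% of genes). In granule lineage-like cells Cdh4 had 15.6 and 17.1 CPM in the mutants and 30.6 and 32.7 CPM in the controls (log2 fold change -0.96 ± 0.38, adjusted p 0.927), and Cdh10 (14.1 and 12.2 CPM in the mutants, 20.4 and 38.2 CPM in the controls), Pcdh7 (20.02 and 22.0 CPM in the mutants, 45.1 and 24.5 CPM in the controls), Pcdh15 (52.6 and 57.5 CPM in the mutants, 90.2 and 68.2 CPM in the controls) and Cdh2 (176 and 161 CPM in the mutants, 246 and 224 CPM in the controls) were lower as well. Pcdh18 was the 1 higher member there, at 34.1 and 35.5 CPM in the mutants and 23.3 and 29.99 CPM in the controls. In cycling-like cells Pcdh10 had 48.8 and 40.1 CPM in the mutants and 107 and 65.7 CPM in the controls, and Cdh2 had 169.5 and 132 CPM in the mutants and 227 and 224 CPM in the controls. The median cycling-like cell held 4991 and 4603.5 UMIs in the mutants and 1622.5 and 2787.5 UMIs in the controls, and the part of this depth was not tested. In astroglia-like cells Cdh2 (366 and 323 CPM in the mutants, 388 and 411 CPM in the controls) was lower and Cdh10 (33.0 and 64.2 CPM in the mutants, 30.5 and 32.0 CPM in the controls) higher, while Cdh24 and Cdh22 overlapped. In oligodendrocyte lineage-like cells Pcdh11x (45.6 and 41.2 CPM in the mutants, 100.4 and 48.6 CPM in the controls) and Cdh24 (14.2 and 14.7 CPM in the mutants, 22.3 and 22.7 CPM in the controls) were lower. Microglia-like and erythroid-like cells had 1 member tested each, Cdh2, which overlapped between genotypes in both. Without control replicate 2, 5 of 16 members passed in granule lineage-like (14.1% of all genes), 3 of 20 in astroglia-like (9.44%), 1 of 16 in oligodendrocyte lineage-like (4.53%) and 1 of 5 in cycling-like cells (5.57%). Without control replicate 1 it was 2 of 16 (5.65%), 1 of 18 (3.10%), 1 of 16 (6.47%) and 0 of 6 (9.67%) in the same order.

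In all cells together, both mutants lay below both controls for 7 of 28 measured members and above for 3, against 11.8% and 23.1% of all genes. Cdh7 had 13.8 and 12.1 CPM in the mutants and 29.2 and 18.8 CPM in the controls (log2 fold change -0.97 ± 0.29, adjusted p 0.955), Cdh2 had 198 and 185 CPM in the mutants and 253 and 223 CPM in the controls, and Pcdh17 had 40.1 and 47.6 CPM in the mutants and 51.9 and 61.4 CPM in the controls. Cdh3 was higher, with 2.53 and 0.875 CPM in the mutants and 0.226 CPM and 0 in the controls (the 0 allows up to 1.05 CPM), beside 68 and 23 choroid plexus-like cells in the mutants and 0 and 0 in the controls. Pcdh15 (11.4 and 9.07 CPM in the mutants, 18.6 and 15.7 CPM in the controls) and Cdh9 (1.26 and 1.31 CPM in the mutants, 10.1 and 1.40 CPM in the controls) were the other members with an unadjusted p under 0.05, and like Cdh3 were added after their values were seen. Shares of the classes differ between libraries, so that these values combine level and composition. Without control replicate 2, 9 of 28 members passed, against 17.0% of all genes, and without control replicate 1 it was 0 of 28, against 7.48% of genes.

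Partners of the cadherins were taken from lists, and 0 of their members passed the adjusted threshold in any class. Of the 14 catenins and junction adaptors, 10 were tested in the Purkinje-like, 12 in the interneuron-like and 13 in the progenitor-like class, and 0, 0 and 2 had an unadjusted p under 0.05, against 3.25%, 3.86% and 6.38% of all genes tested in these classes. Those 2 were Ctnna2, the neuronal alpha-catenin, at 75.6 and 69.9 CPM in mutant and 108 and 111 CPM in control progenitor-like cells, and Plekha7, an adaptor of junctional catenin complexes, at 18.5 and 17.2 CPM in mutant and 6.25 and 13.6 CPM in control cells. Of the 9 WAVE complex genes, all tested in the 3 classes, 1 had an unadjusted p under 0.05 in interneuron-like cells (3.86% of all genes): Brk1, a small subunit, at 134 and 124 CPM in mutant and 65.4 and 78.8 CPM in control interneuron-like cells (log2 fold change 0.84 ± 0.23, adjusted p 1.00). The 10 Fat, Dachsous and flamingo cadherins and related genes, the 3 calsyntenins, the 4 nectins and the 6 cadherin cleavage genes had 0 at an unadjusted p under 0.05 in these 3 classes. Of 57 clustered protocadherins, 8, 28 and 13 were tested in these classes in the same order, and 0, 2 and 0 had an unadjusted p under 0.05, beside the same shares of all genes. Isoforms of the alpha and of the gamma cluster share their last exons, so that counts at the transcript end cannot be assigned to them with certainty.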

How the data were processed

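Cells of 4 libraries, 2 En1/2 CKO and 2 control, were measured by droplet single-cell RNA-seq. The values deposited by the authors are unnormalized UMI counts for every gene in every barcode, made with Cell Ranger 6.1.0 on mm10 with a reporter sequence added, per the submitters' processing notes and the file headers. From these, barcodes with 500 or more genes and a mitochondrial share up to 10% were taken, the highest Scrublet scores were removed at 0.8% per 1000 barcodes in every library (3.65% to 9.22% of cells), and cells were clustered with scanpy 1.11.5 (Python 3.11.15; 2000 variable genes without members, 30 principal components, 15 neighbours, Leiden resolution 1). A cluster was named from at least 3 markers raised 1.5-fold, with 10 CPM added. Counts were summed per library and class of at least 20 cells in every library and tested with edgeR 4.0.16 (R 4.3.3; quasi-likelihood, TMM, filterByExpr, 2-sided, Benjamini-Hochberg, threshold 0.05), and DESeq2 1.42.0 was an alternative. UMI counts were not length-scaled, so levels are compared within a gene. In classes, values were printed for members with a mean of at least 20 CPM with no overlap between genotypes, at most 6 per direction, with others added by p where under 4 qualified. Pathway lists name at most 2 genes. The members and lists were chosen with earlier results of these data known. The labels do not say that replicates came from separate litters, so p-values measure the spread between these libraries. With 2 libraries a group, no batch could be separated from genotype. The edgeR step was tested on simulated counts. Other alternatives were RLE size factors, no low-count filter, thinning, other doublet, cluster and cell filter settings, a replicate block, and leaving out each library. No column of per-sample values was left unused.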

Additional observations from a re-analysis of the deposited data

How the results depend on the processing

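Of 470 values of named members under alternatives, 442 kept their direction and side of the threshold, 19 passed it, and 9 changed sign, given next as log2 fold changes. Keeping doublets gave 0.10 for Cdh11 in Purkinje-like cells. Pcdh9 in all cells stood at -0.08 when thinned, -0.10 under the stricter cell filter (1000 genes, 5% mitochondrial) and -0.09 in cells with at least 2000 UMIs. Cdh8 in progenitor-like cells stood at 0.00 and 0.09 under those 2 cell filters. Leaving out 1 library gave ranges of -2.21 to 6.4 for Cdh9 and -2.12 to 6.30 for Cdh10 in Purkinje-like cells and -2.0 to 0.63 for Cdh13 in interneuron-like cells. Members called with 1 library left out ranged over 0 to 4 in Purkinje-like, 0 to 6 in interneuron-like, 0 to 7 in progenitor-like, 0 to 9 in all cells, 0 to 3 in astroglia-like, 0 to 5 in granule lineage-like, 0 to 1 in oligodendrocyte lineage-like and 0 to 1 in cycling-like cells, where the fits without a control called 2.31% to 17.8% of all genes in the first 4 and 3.10% to 14.1% in the others, and a lone control was assumed to vary like the mutants. With no low-count filter 1 member (Cdh9) was called in Purkinje-like cells. The interaction called 1 with doublets kept (Pcdh9) and 1 at Leiden resolution 2 (Pcdh17). Members with both mutants below both controls, with the share of all genes measured in the same sums, were 1 of 6 (9.74%) in Purkinje-like and 4 of 9 (10.96%) in interneuron-like cells when thinned, 5 of 21 (15.7%) in progenitor-like cells with automatic doublet thresholds and 6 of 19 (16.4%) under the stricter filter, and 15 of 27 (17.8%) in all cells under the stricter filter and 13 of 26 (15.3%) at 2000 UMIs. Members above were 1 of 6 (15.3%), 1 of 9 (16.2%), 1 of 16 (16.8%) and 0 of 23 (19.9%) in Purkinje-like, interneuron-like, progenitor-like and all cells when thinned, 1 of 20 (21.6%) in progenitor-like cells with doublets kept and 1 of 21 (21.2%) at Leiden resolution 2, and 1 of 27 (20.9%) in all cells under the stricter filter. The highest class was the same for 4 of 29 members under the stricter filter and 12 at 2000 UMIs, where no Purkinje-like class remained, control replicate 2 having 6 and 13 such cells, so that the Purkinje-like comparison was not run there. The cause of the other moves was not tested. Same-numbered replicates shared only a number (correlation of deviations 0.0342 in Purkinje-like, -0.194 in interneuron-like cells and -0.197 in progenitor-like ones), and a replicate block called 0 members and 7, 5, 4 and 101 genes in Purkinje-like, interneuron-like, progenitor-like and all cells, against 2, 0, 0 and 0 without it. A crossed pairing, added after seeing the data, called 0 members and 2, 1, 43 and 0 genes. DESeq2 called 2, 2, 2 and 54 genes, and edgeR with no low-count filter 17, 34, 103 and 0. The shallow sum of Purkinje-like cells in control replicate 2, 57716 UMIs in 23 cells, limits every Purkinje-like value.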

Other observations

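Members on the same chromosome did not always share their highest class. On chromosome 15, Cdh9, Cdh12 and Cdh18 were highest in Purkinje-like cells (30.4, 18.7 and 17.1 CPM), Cdh6 in astroglia-like cells (32.0 CPM) and Cdh10 in oligodendrocyte lineage-like cells (56.7 CPM). On chromosome 14, Pcdh8, Pcdh9, Pcdh17 and Cdh24 were highest in Purkinje-like cells and Pcdh20 in astroglia-like cells (9.25 CPM). Outside the rare classes, Cdh5 was highest in microglia or macrophage-like cells in each of the 4 libraries, at a mean of 4.24 CPM against 1.06 CPM in the next class. This ranking rests on 2 and 3 UMIs in the mutants and 1 and 1 in the controls, too few to settle a level.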
